A study of Mus musculus with 36 samples.

Results

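The 8 genes studied here belong to the fibroblast growth factor (FGF) system and were followed through an IL-1β time course. They are the ligand genes Fgf2, Fgf7, Fgf10 and Fgf18, and the receptor genes Fgfr1, Fgfr2, Fgfr3 and Fgfrl1. They were chosen by name, as 8 of the 53421 genes in the count table, and all 8 passed the low-count filter in every comparison. The cells were a mouse chondrocyte line of fibroblastic character with a wild-type (WT) genotype, transfected with a non-targeting siRNA pool (NT) or with a pool against Ift88 (IFT88siRNA), and the time course began 48 h after transfection. Each of these groups was sampled without IL-1β (0 h) and at 5 times from 1 to 24 h of IL-1β at 10 ng/ml, with 3 replicates per condition and 36 libraries in all. The labels put both siRNA pools at 50 nM, while the study's methods state a lower dose. All libraries come from 1 cell line, the labels do not say whether replicates were separate cultures, and p-values therefore measure the spread between these libraries. As no libraries of untreated cells at 1 to 24 h are analysed here, IL-1β and hours in culture cannot be told apart.

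FGF ligands bind cell-surface tyrosine kinase receptors together with heparan sulfate chains, and the receptors signal through the adaptor Frs2 to the Ras, Raf and ERK cascade and through phospholipase C gamma. In cartilage, Fgf2 is stored in the pericellular matrix, Fgf18 promotes chondrocyte growth and matrix formation, and Fgfr3 restrains the growth plate. Fgf7 and Fgf10 are ligands made by mesenchymal cells that act on the IIIb splice form of Fgfr2, which is typical of epithelial cells. Fgfrl1 binds FGF ligands but lacks the intracellular kinase domain. Ift88 encodes a subunit of the intraflagellar transport B complex that builds primary cilia.

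Libraries held between 19337022 and 38304127 counted reads. The targeted gene, Ift88, lay between 5.83 and 10.2 CPM (reads relative to the library's total, with edgeR's TMM scaling) in the 18 NT libraries. It lay between 1.43 and 3.10 CPM in the 18 IFT88siRNA libraries, so the groups did not overlap. By edgeR, Ift88 passed the test at 6 of 6 time points (log2 fold change from -1.47 at 24 h to -2.12 at 2 h). Settings in which it passed at fewer times are given at the end. Of 8 chondrocyte markers, 5 had a median of at least 1 TPM (Salmon's estimate of transcripts, scaled for gene length and depth), and their summed level was 18.9 to 67.9 TPM in NT and 25.0 to 61.3 TPM in IFT88siRNA. The defining cartilage gene Acan had a median of 0.0444 TPM, and Col9a1 was listed at 0 in 25 libraries. All 8 fibroblast markers reached that level (summed 1106 to 1576 TPM in NT and 1059 to 1594 TPM in IFT88siRNA). Within this sum Dcn moved with time, from a mean of 11.7 TPM at 0 h to 171 TPM at 8 h and 553 TPM at 24 h in NT, and from 16.3 to 137 and 346 TPM in IFT88siRNA. Its IFT88siRNA libraries lay above all NT libraries at 0, 1 and 2 h (15.5 to 17.0 against 11.0 to 12.1 TPM at 0 h). They overlapped with NT at 4 h and lay below it at 8 and 24 h (336 to 360 against 526 to 575 TPM at 24 h). The share of all genes without such overlap was not counted. Macrophage markers reached a median of 1 TPM in 1 of 5 cases, Cd68. Their sum was 4.91 to 12.6 TPM in NT and 4.45 to 10.1 TPM in IFT88siRNA, with Adgre1 at 0 in 28 libraries. Endothelial markers reached that median in 0 of 4 cases (at most 1.78 TPM summed). Among 4 epithelial markers only Cdh1 passed (summed 0.420 to 9.38 TPM in NT and 0.453 to 7.31 TPM in IFT88siRNA), and it moved with time in NT, from a mean of 0.750 TPM at 0 h to 5.96 TPM at 4 h and 0.243 TPM at 24 h. The part of these cell type markers in the results below was not tested, and in bulk RNA a change in the number of cells cannot be told apart from a change in RNA per cell.

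Levels of different genes were compared per length, in TPM. In NT cells at 0 h, Fgfr1 stood highest at 177 ± 6.58 TPM (SD, n = 3), followed by Fgf7 at 97.1 ± 4.61 TPM and Fgfr2 at 80.2 ± 1.88 TPM. Fgf10 (51.4 ± 0.762 TPM), Fgfrl1 (41.6 ± 1.40 TPM) and Fgf2 (14.7 ± 0.861 TPM) came next, and no library of these 6 genes overlapped with that of its neighbour in the order. Fgf18 (4.63 ± 0.806 TPM) and Fgfr3 (4.47 ± 0.418 TPM) were lowest, and their libraries overlapped. The cells thus carried more ligand transcript of Fgf7 and Fgf10 than of Fgf2 before IL-1β. With CPM per kilobase of all exons in place of TPM, 5 of the 8 genes kept their rank, Fgfr2 moved from rank 3 to rank 5, and Fgfr1 and Fgf7 stood almost level at 32.7 and 32.3. By 4 h the order in NT had changed to Fgfr1 (279 ± 9.20 TPM), Fgf7 (204 ± 6.76 TPM), Fgf10 (85.5 ± 2.98 TPM), Fgf2 (64.0 ± 6.01 TPM), Fgfrl1 (49.4 ± 4.60 TPM), Fgfr2 (30.2 ± 0.471 TPM), Fgfr3 (3.17 ± 1.01 TPM) and Fgf18 (0.909 ± 0.349 TPM), with no overlap between neighbours. CPM per kilobase reversed the first pair at 4 h, with Fgf7 at 81.3 and Fgfr1 at 63.5, and at 2 h, with 73.4 and 59.1. In TPM, IFT88siRNA cells held the same genes at ranks 1 to 8 at 4 h. At 0 h in IFT88siRNA, Fgfr2 and Fgf7 overlapped, as did Fgf10 and Fgfrl1, and Fgf2, at 8.09 ± 0.452 TPM, overlapped with Fgfr3 at 7.04 ± 1.15 TPM.

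The first comparison asked how the FGF genes responded to IL-1β in NT cells. All 8 genes passed the joint test of the 5 time points against 0 h (edgeR quasi-likelihood F-test, Benjamini-Hochberg adjusted p under 0.05 and a fold change over 1.5 at 1 or more times), which 50.0% of the 16048 genes tested also did. At single time points, 4 of the 8 were called at 1 h against 18.7% of all genes, 6 at 2 h against 27.3%, 6 at 4 h against 28.7%, 5 at 8 h against 19.7% and 6 at 24 h against 16.3%. Fgf2, Fgf7 and Fgf10 peaked at 4 or 8 h, Fgf18 fell, and the receptors rose early and, apart from Fgfr1, fell below their 0 h level later. The 5 time points share the same 0 h libraries. The changes below are log2 fold changes against 0 h with their standard error (SE). Where libraries are said to lie apart from those of 0 h, the share of all genes doing so was not counted.

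Fgf2 (chr3:37348346-37410108, plus strand, GRCm38) first fell and then rose. The NT libraries held 36.01, 35.9 and 34.1 CPM at 0 h, 8.49, 9.94 and 9.60 CPM at 1 h, and 72.8, 52.7 and 83.8 CPM at 2 h. At 4 h they reached 169, 173 and 162 CPM before declining to 65.4, 64.7 and 55.8 CPM at 8 h and 35.9, 32.8 and 31.9 CPM at 24 h. The libraries at 1 h all lay below, and those at 2, 4 and 8 h all above, the 0 h libraries, whereas those at 24 h overlapped with them. The fall at 1 h was 3.77-fold (log2 -1.91 ± 0.13, adjusted p = 1.59e-11) and the rise at 4 h 4.79-fold (log2 2.26 ± 0.10, adjusted p = 9.18e-16). At 24 h the change was -0.08 ± 0.11 on the log2 scale (adjusted p = 0.597). Exons of Fgf2 share 640 bases, 9.44% of its exonic length, with Nudt6 on the opposite strand, and reads were counted without strand. Nudt6 held 10 to 62 reads per library against 152 to 3770 for Fgf2.

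Fgf7 (chr2:126034658-126091185, plus strand), the keratinocyte growth factor gene, rose and stayed high. Its NT libraries held 100.1, 108 and 107 CPM at 0 h and 272, 272 and 247 CPM at 4 h, and were still at 199, 204 and 180.0 CPM at 24 h. No library after IL-1β overlapped with 0 h. The change grew from 0.54 ± 0.05 on the log2 scale at 1 h, a 1.45-fold difference below the fold threshold, to 1.34 ± 0.05 at 4 h (2.53-fold, adjusted p = 2.41e-17), and was 0.89 ± 0.05 at 24 h.

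Fgf10 (chr13:118669791-118792115, plus strand), which drives branching of the lung and limb bud outgrowth in the embryo, followed later. Its NT libraries held 105, 109.7 and 111 CPM at 0 h, dipped to 80.4, 85.7 and 86.2 CPM at 2 h, and reached 258, 252 and 257 CPM at 8 h. The 2 h libraries lay below and the 4, 8 and 24 h libraries above all 0 h libraries. The dip of 0.37 ± 0.06 on the log2 scale had an adjusted p of 3.71e-06 but was 1.29-fold, below the fold threshold, and the rise was 0.95 ± 0.05 at 4 h, 1.24 ± 0.05 at 8 h (2.36-fold, adjusted p = 1.27e-15) and 0.96 ± 0.05 at 24 h. The ratio of Fgf7 to Fgf10 in TPM accordingly went from 1.89 ± 0.08 at 0 h to 5.58 ± 0.03 at 2 h and 1.56 ± 0.01 at 8 h (SD, n = 3).

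Fgf18 (chr11:33117430-33147400, minus strand) was the ligand that fell. It was thinly covered, with 48, 67 and 45 reads in the NT libraries at 0 h, 6, 9 and 15 at 4 h, and 15, 16 and 14 at 24 h. In normalised counts these were 2.03, 2.76 and 1.996 CPM at 0 h, 0.340, 0.413 and 0.797 CPM at 4 h, and 0.561, 0.595 and 0.474 CPM at 24 h. All libraries from 2 h on lay below those of 0 h. The fall was 1.07 ± 0.22 on the log2 scale at 2 h, and at 4 h the fold change was -2.12 ± 0.26 (4.34-fold lower, adjusted p = 1.7e-07), with -2.03 ± 0.25 at 8 h and -2.05 ± 0.24 at 24 h. At 1 h it was 0.23 ± 0.19 (adjusted p = 0.322).

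For the ligand genes Fgf7, Fgf10 and Fgf18, the 250 bases before the start sites are shown 5′ to 3′ on the gene's own strand. They were taken from RefSeq on GRCm38.p6, with motif matches in capitals. The windows are chr2:126034408-126034657 for Fgf7, chr13:118714449-118714698 for Fgf10 and chr11:33147401-33147650 (minus strand) for Fgf18. For Fgf10 the RefSeq start, 118714699, and its window lie inside the gene span given above, which comes from GENCODE annotation.
Fgf7: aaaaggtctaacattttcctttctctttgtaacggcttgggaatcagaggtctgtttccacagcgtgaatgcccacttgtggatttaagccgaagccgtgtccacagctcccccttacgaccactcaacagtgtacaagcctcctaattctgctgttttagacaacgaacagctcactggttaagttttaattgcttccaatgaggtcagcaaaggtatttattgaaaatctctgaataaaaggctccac
Fgf10: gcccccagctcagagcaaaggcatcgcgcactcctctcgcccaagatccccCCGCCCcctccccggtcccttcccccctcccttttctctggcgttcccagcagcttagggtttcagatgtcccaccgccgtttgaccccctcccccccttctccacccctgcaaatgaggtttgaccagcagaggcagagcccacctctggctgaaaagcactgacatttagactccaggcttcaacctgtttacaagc
Fgf18: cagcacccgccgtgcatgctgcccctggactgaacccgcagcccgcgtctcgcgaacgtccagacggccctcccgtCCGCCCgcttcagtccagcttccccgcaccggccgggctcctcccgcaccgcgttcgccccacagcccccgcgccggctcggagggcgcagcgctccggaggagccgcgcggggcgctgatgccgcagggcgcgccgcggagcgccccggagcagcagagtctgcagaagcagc
The 3 windows were searched on both strands for NF-kB sites, AP-1 (TGANTCA), SP1 (GGGCGG), ETS (CCGGAAGT) and cyclic AMP response elements (TGACGTCA), which occur in 3.9%, 6.75%, 32.7%, 2.88% and 1.55% of all 32817 mouse promoters of this length. The Fgf7 window was 43.6% G and C and held none of these letter strings. The Fgf10 window (61.2% G and C) held the SP1 string 199 bases before the start, and the Fgf18 window (77.2%) held it 174 bases before, both as CCGCCC. The Fgf2 window held no bases outside exons and is not shown, but had the SP1 string 49 bases before the start. Of the receptor windows, also not shown, those of Fgfr3 and Fgfrl1 held SP1 strings and that of Fgfrl1 an ETS string. A match is a description of the letters and not of binding, and its part in the course of any gene was not tested.

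Among the receptors, Fgfr1 (chr8:25513654-25575718, plus strand), which carries most FGF signals in mesenchymal cells, rose and returned. Its NT libraries held 332, 324 and 313 CPM at 0 h, 622, 609 and 651 CPM at 4 h, and 325, 311 and 312 CPM at 24 h. The 1, 2 and 4 h libraries lay above all 0 h libraries, while those of 8 and 24 h overlapped with them. The change was 0.53 ± 0.04 on the log2 scale at 1 h, below the fold threshold, 0.85 ± 0.04 at 2 h and 0.97 ± 0.04 at 4 h (1.96-fold, adjusted p = 1.73e-15). At 8 h it was 0.07 ± 0.04 (adjusted p = 0.189) and at 24 h -0.03 ± 0.04 (adjusted p = 0.606).

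Fgfr2 (chr7:130162451-133123350, minus strand), the receptor for Fgf7 and Fgf10 in its IIIb form, rose and then dropped. The NT libraries held 119, 121 and 116 CPM at 0 h, 192, 184 and 189 CPM at 1 h, 56.1, 53.3 and 55.0 CPM at 4 h, and 71.5, 73.2 and 69.6 CPM at 24 h. Every time point was separated from 0 h, above it at 1 and 2 h and below it at 4, 8 and 24 h. The rise was 0.67 ± 0.04 on the log2 scale at 1 h (1.59-fold, adjusted p = 1.94e-13), the change at 4 h was -1.11 ± 0.04 (2.15-fold lower, adjusted p = 8.19e-18) and at 24 h -0.73 ± 0.04. The changes of 0.50 ± 0.04 at 2 h and -0.24 ± 0.04 at 8 h did not reach 1.5-fold. With limma on TPM the 1 h rise was 0.50 and not past 1.5-fold. Gene counts do not separate the IIIb and IIIc splice forms. The span given is that of GENCODE annotation, while the RefSeq start lies at 130266808. Exons of Fgfr2 in this span share 314 bases, 3.04% of its exonic length, with Ctbp2 on the same strand.

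Fgfr3 (chr5:33721674-33737068, plus strand) was the receptor with the lowest level. Its NT libraries held 6.97, 7.88 and 7.85 CPM at 0 h, 12.4, 12.6 and 14.9 CPM at 1 h, and 3.66, 3.23 and 4.51 CPM at 24 h. The groups at 1 and 2 h lay above 0 h and those at 4, 8 and 24 h below it. It rose by 0.81 ± 0.12 on the log2 scale at 1 h (adjusted p = 4.13e-06, or 0.0518 with limma on TPM without a filter) and 0.78 ± 0.12 at 2 h, and changed by -0.82 ± 0.14 at 8 h and -0.99 ± 0.14 at 24 h (1.98-fold lower, adjusted p = 2.29e-06). The change of -0.40 ± 0.14 at 4 h had an adjusted p of 0.0156 and was under 1.5-fold. An opposite-strand transcript, G630022F23Rik, shares 13.9% of the exonic length of Fgfr3.

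Fgfrl1 (chr5:108692382-108706924, plus strand) rose early and fell late. The NT libraries held 46.2, 48.0 and 45.9 CPM at 0 h, 85.4, 85.0 and 79.7 CPM at 2 h, and 33.3, 30.0 and 28.5 CPM at 24 h. All libraries at 1, 2 and 4 h lay above 0 h and all at 8 and 24 h below it. The change was 0.60 ± 0.06 on the log2 scale at 1 h, 0.83 ± 0.05 at 2 h (1.78-fold, adjusted p = 2.86e-12) and -0.61 ± 0.06 at 24 h (1.53-fold lower). The 1 h and 24 h changes lay at the fold threshold. The 1 h change was 0.58 without replicate 1 of every group, 0.52 with upper-quartile scaling and 0.38 to 0.39 with limma on TPM, and the 24 h change was -0.58 without replicate 2 and without replicate 3 and -0.57 without the low-count filter, so that neither passed there. The 2 h call was also lost with limma on TPM, at 0.54 to 0.55.

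**Figure D1:**
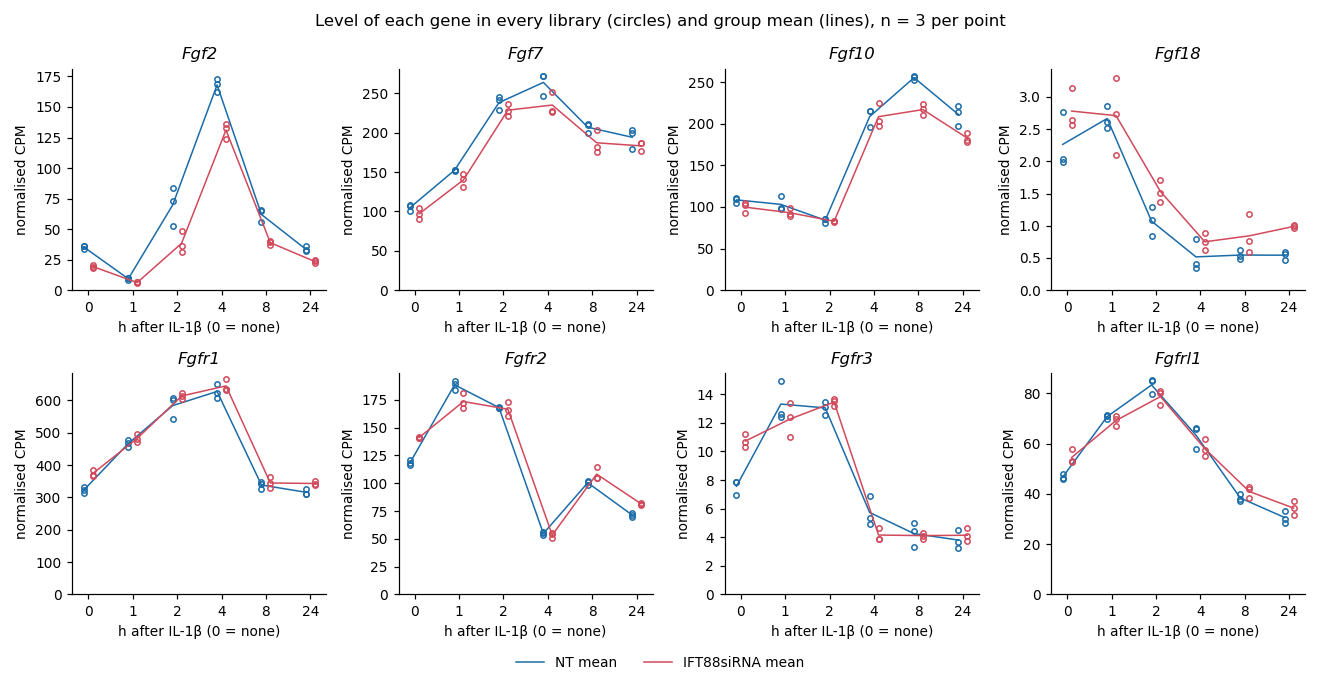
Normalised counts in CPM (vertical axes, each starting at 0) of the 8 genes against hours after IL-1β (horizontal axis, equally spaced), with each library as a circle and lines through the means of 3 libraries, for NT (blue) and IFT88siRNA (red). Fgf2 peaks at 4 h with 162 to 173 CPM in NT, Fgf10 at 8 h, Fgf18 declines from 2 h on, and Fgfr2 is lowest at 4 h.

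The same course in IFT88siRNA cells, fitted apart from NT so that no library was shared, again had all 8 genes called over the 5 time points together (48.2% of all genes tested). At single time points 1 gene was called at 1 h (15.1% of all genes), 4 at 2 h (25.6%), 7 at 4 h (29.3%), 5 at 8 h (17.6%) and 6 at 24 h (14.2%). Fgf2 was the gene called at 1 h and fell to 6.40, 5.91 and 6.33 CPM from 21.0, 18.7 and 18.6 CPM at 0 h (log2 -1.65 ± 0.13, adjusted p = 1.66e-10). It then rose to 124, 133 and 136 CPM at 4 h, all above 0 h and 6.75-fold higher (log2 2.76 ± 0.10, adjusted p = 1.24e-17). Fgf7 rose by 1.28 ± 0.06 on the log2 scale at 4 h and Fgf10 by 1.12 ± 0.05 at 8 h. Fgf18 changed by -1.89 ± 0.23 at 4 h and -1.48 ± 0.20 at 24 h.

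Among the receptors in IFT88siRNA cells, Fgfr1 rose by 0.79 ± 0.05 on the log2 scale at 4 h (0.53, under 1.5-fold, with limma on TPM), and Fgfr2 changed by 0.30 ± 0.05 at 1 h, under the fold threshold, and by -1.40 ± 0.05 at 4 h (2.64-fold lower, adjusted p = 1.44e-17). Fgfr3 libraries went from 10.3, 11.2 and 10.7 CPM at 0 h to 12.4, 11.0 and 13.4 CPM at 1 h, which overlapped with 0 h (0.19 ± 0.09, adjusted p = 0.0947). At 4 h they held 3.89, 3.91 and 4.67 CPM, all below 0 h (-1.36 ± 0.11, adjusted p = 5.33e-11), and the change stayed at -1.39 ± 0.10 at 8 h and -1.36 ± 0.10 at 24 h. Fgfrl1 changed by 0.53 ± 0.06 at 2 h, under the fold threshold, and by -0.66 ± 0.06 at 24 h. Whether these courses differ from those in NT was tested directly, as given further on.

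**Figure D2:**
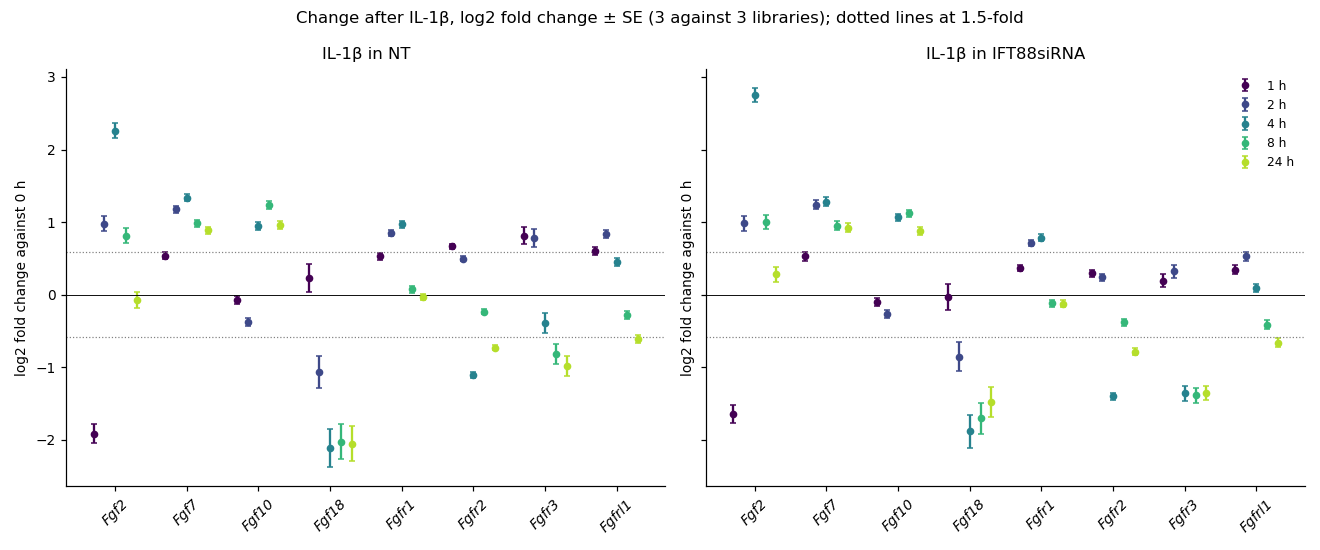
Log2 fold change against 0 h (vertical axis) of each gene at the 5 times from 1 to 24 h of IL-1β (points from dark to light, left to right within a gene), in NT (left) and IFT88siRNA (right). Bars are SE from the edgeR fit, dotted lines mark 1.5-fold, and Fgf2 spans from -1.91 at 1 h to 2.26 at 4 h in NT.

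The share of each receptor in the receptor transcripts changed along the course. Fgfr1 made up 58.4 ± 0.660% of the summed TPM of the 4 receptor genes in NT at 0 h and 77.2 ± 1.42% at 4 h (SD, n = 3), while Fgfr2 went from 26.4 ± 0.303% to 8.33 ± 0.216%. Their TPM ratio in NT was 2.21 ± 0.05 at 0 h, 1.94 ± 0.10 at 1 h, 2.99 ± 0.20 at 2 h, 9.26 ± 0.35 at 4 h, 2.92 ± 0.08 at 8 h and 3.57 ± 0.28 at 24 h. In IFT88siRNA cells it was 2.13 ± 0.10 at 0 h, 9.75 ± 0.60 at 4 h and 3.57 ± 0.17 at 24 h. The ratios at 4 h, from 8.91 to 9.62 in NT and from 9.21 to 10.4 in IFT88siRNA, overlapped between siRNA groups and lay apart from every other time point. Fgfr3 never exceeded a mean of 2.09%, and Fgfrl1 held 10.8 to 14.4% in NT. The shares depend on the measure of length. In CPM per kilobase of all exons, Fgfr1, Fgfrl1 and Fgfr2 stood at 32.7, 16.8 and 11.5 in NT at 0 h. At 4 h they stood at 63.5, 22.8 and 5.31, so Fgfr2 lay below Fgfrl1 at both times.

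**Figure D3:**
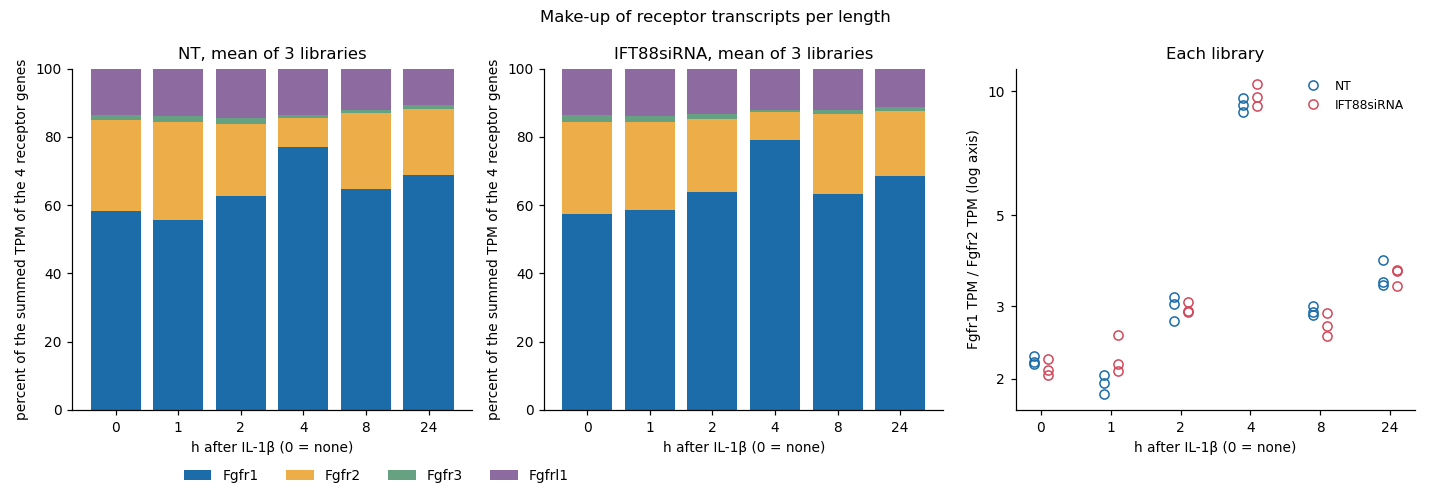
Left and middle, stacked bars of the percent of the summed TPM of Fgfr1, Fgfr2, Fgfr3 and Fgfrl1, as means of 3 libraries, against hours after IL-1β. Right, the ratio of Fgfr1 to Fgfr2 TPM in each library on a log axis, which stands between 8.91 and 10.4 at 4 h in all 6 libraries.

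The next comparison set IFT88siRNA against NT at each time point, using the 6 libraries of that time. Fgf2 was the member that differed most often. Its IFT88siRNA libraries lay below all NT libraries at 6 of 6 times: 21.0, 18.7 and 18.6 against 36.01, 35.9 and 34.1 CPM at 0 h, and 23.6, 24.7 and 22.3 against 35.9, 32.8 and 31.9 CPM at 24 h. How many of all genes separate in this way between siRNA groups was not counted. The difference at 0 h was 1.82-fold (log2 -0.86 ± 0.06, adjusted p = 1.67e-09), where Fgf2 was the 1 member called among 8 and 2.23% of all genes were called. It was also called at 1 h (-0.60 ± 0.10, adjusted p = 0.000683; 2.66% of all genes called), 2 h (-0.86 ± 0.17, adjusted p = 0.0209; 0.496%) and 8 h (-0.69 ± 0.07, adjusted p = 0.000382; 0.692%). At 4 h (-0.36 ± 0.05, adjusted p = 0.000481) and 24 h (-0.51 ± 0.06, adjusted p = 9.18e-05) the difference was under 1.5-fold. The call at 1 h was lost without replicate 2 (log2 -0.52, under 1.5-fold) and that at 2 h without replicate 1 (adjusted p = 0.498), and over all alternatives the adjusted p reached 0.255 and 0.498, respectively. With limma on TPM both calls were lost, and without the low-count filter the 1 h difference was -0.58.

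Fgf18 was the other ligand called, at 24 h, where it was the 1 member past the thresholds and 1.15% of all genes were called. Its IFT88siRNA libraries held 0.990, 1.01 and 0.970 CPM, from 25, 42 and 30 reads, above the NT libraries at 0.561, 0.595 and 0.474 CPM (log2 0.86 ± 0.25, adjusted p = 0.0425). The call was lost without replicate 1 (adjusted p = 0.106), without replicate 2 (0.308) and without replicate 3 (0.110), with the replicate number as a block (0.0787), and with limma on TPM (0.123 to 0.293), while DESeq2 gave no adjusted p. Its log2 differences at the other times ran from 0.01 to 0.60, with adjusted p of 0.232 or more. Fgf7 and Fgf10 differed by at most 0.25 on the log2 scale at any time, and had adjusted p under 0.05 at 1 h for Fgf7 (0.0449) and at 8 h (0.013) and 24 h (0.015) for Fgf10, each lower in IFT88siRNA.

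All 4 receptors were somewhat higher in IFT88siRNA cells at 0 h, none by 1.5-fold. Fgfr3 held 10.3, 11.2 and 10.7 against 6.97, 7.88 and 7.85 CPM in NT (log2 0.50 ± 0.09, adjusted p = 0.000303), and Fgfr2 140.3, 142 and 141 against 119, 121 and 116 CPM (0.25 ± 0.04, adjusted p = 0.000148). Fgfr1 was at 367, 386 and 368 against 332, 324 and 313 CPM (0.21 ± 0.04, adjusted p = 0.000571), and Fgfrl1 at 52.5, 57.9 and 53.1 against 46.2, 48.0 and 45.9 CPM (0.22 ± 0.05, adjusted p = 0.00345). In each case no library of either group overlapped with the other group, but the share of all genes without such overlap was not counted. Over the alternatives tried, the adjusted p of these 4 differences reached 0.119 for Fgfr2 to 0.191 for Fgfrl1. Counting by adjusted p alone, 5 of the 8 genes differed at 0 h, with 19.5% of all genes doing so. At 1, 2 and 4 h the receptors' log2 differences lay between -0.46 and 0.07, and the largest, Fgfr3 at 4 h with 3.89, 3.91 and 4.67 against 5.38, 4.96 and 6.86 CPM in NT, had an adjusted p of 0.112. Fgfr2 was lower in IFT88siRNA at 1 h (-0.13 ± 0.04, adjusted p = 0.036) and higher at 24 h (0.19 ± 0.04, adjusted p = 0.0135). At 4 h the edgeR test called 0 of the 8 genes (0.432% of all genes called), and DESeq2 and limma also called 0. By edgeR, 4 of the 8 had an unadjusted p under 0.05, but the share of all genes at that threshold was not counted. Over the 6 time points together, fitted on all 36 libraries, Fgf2 and Fgf18 were called, 2 of 8 against 5.19% of all genes, and all 8 had an adjusted p under 0.05 against 31.8% of all genes. That count of 2 was 1 without replicate 1 and 1 without replicate 2 of every group.

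**Figure D4:**
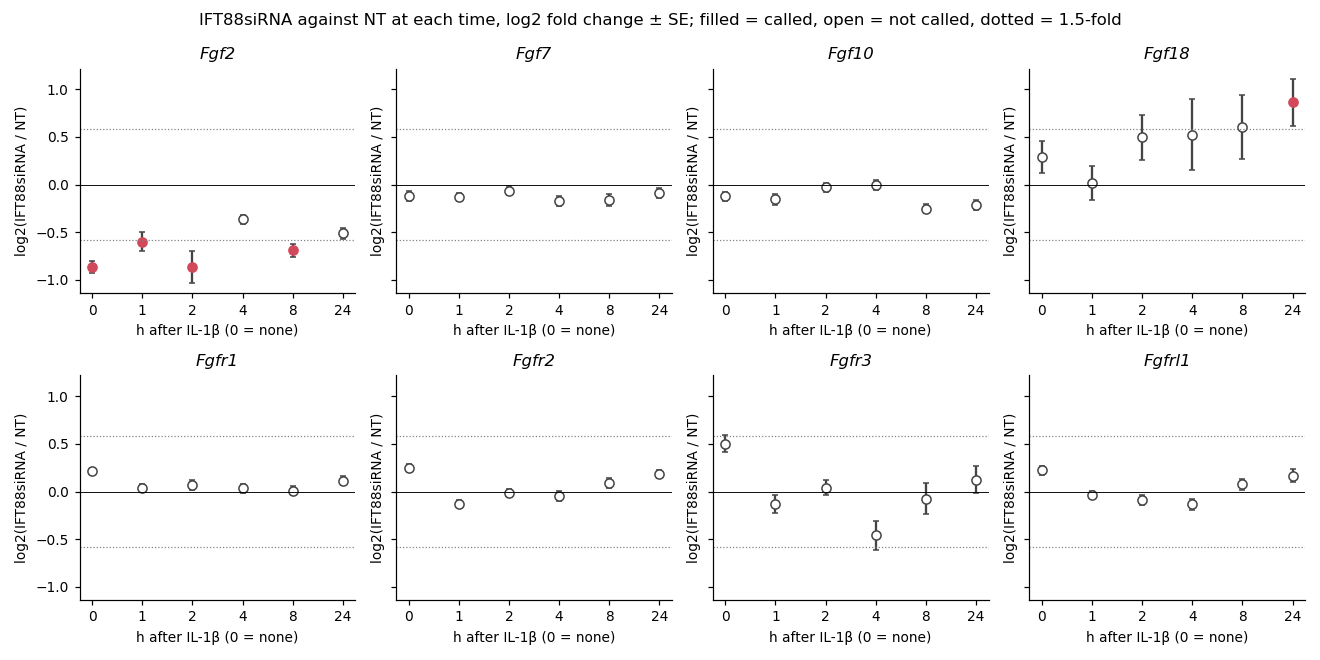
Log2 fold change of IFT88siRNA against NT (vertical axis) from 0 to 24 h of IL-1β (horizontal axis) for each gene, with SE bars; filled points are called, open ones are not, and dotted lines mark 1.5-fold. Fgf2 lies below 0 at all 6 times, and the 4 receptors lie above 0 at 0 h.

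Whether the response to IL-1β itself differed between siRNA groups was tested as the difference of the 2 log2 changes in 1 model of all 36 libraries. Over the 5 time points together Fgfr3 was the 1 member called (largest difference -0.96 at 4 h, adjusted p = 0.007; 1.20% of all genes called), meaning that its change was more negative in IFT88siRNA. At single time points its difference was -0.62 ± 0.15 at 1 h (adjusted p = 0.0183; 0.598% of all genes called), -0.46 ± 0.15 at 2 h (0.146), -0.96 ± 0.18 at 4 h (adjusted p = 0.00222; 0.311%), -0.56 ± 0.18 at 8 h (0.147) and -0.37 ± 0.17 at 24 h (0.653). The 1 h call was lost without each replicate in turn (adjusted p = 0.275, 0.153 and 0.0596), the 4 h call without replicate 1 (0.156), and the joint call without replicate 1 and without replicate 2. With limma on TPM all 3 calls were lost (adjusted p = 0.320 to 0.491 at 1 h and 0.140 to 0.237 at 4 h). The 0 h libraries enter every one of these differences, and Fgfr3 was 1.42-fold higher in IFT88siRNA at 0 h and 1.38-fold lower at 4 h.

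Fgfr2 and Fgfrl1 shifted the same way, under 1.5-fold. The difference for Fgfr2 was -0.37 ± 0.06 at 1 h (adjusted p = 0.000158), -0.26 ± 0.06 at 2 h (0.0133) and -0.29 ± 0.06 at 4 h (0.00831), and its joint adjusted p was 0.000106. Over the alternatives its adjusted p reached 0.0455, 0.705 and 0.288 at these times. For Fgfrl1 it was -0.35 ± 0.09 at 4 h (adjusted p = 0.029; joint 0.0195), and the adjusted p at 4 h reached 0.339 over the alternatives. By adjusted p alone, 3 members and 5.53% of all genes passed the joint test. No ligand passed the joint test by edgeR: the difference for Fgf2 was 0.50 ± 0.15 at 4 h (adjusted p = 0.1, joint 0.127). Over the alternatives this 4 h difference ran from 0.44 to 0.59, and its adjusted p from 4.74e-06 to 0.474. At 2, 8 and 24 h edgeR called 0 of the 8 genes for a different response, against 0.245%, 0.275% and 0.132% of all genes. DESeq2 and limma also called 0. By edgeR, 4, 3 and 2 of the 8 had an unadjusted p under 0.05, and the share of all genes at that threshold was not counted.

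The 6 lists of further FGF pathway genes were counted beside the members, holding 70 tested genes in the IL-1β comparisons, of which 43 were called over the 5 time points together in NT, where 50.0% of all genes were called, and 43 in IFT88siRNA, against 48.2%. In NT 23.6% of all genes were called higher and 26.3% lower at their largest change, beside which the counts of each list stand. The median log2 change over all genes tested in NT, taken at each gene's largest change, was -0.21. Of the 19 other FGF ligand genes, 4 were tested, with 1 higher and 3 lower (median -1.16). None of these 4 reached a mean of 50 counts per library, so their fold changes rest on few reads. All 4 tested genes among the other receptors and co-receptors were lower at their largest change (median -1.56), and only Flrt2 and Flrt3 of them reached that mean count. Flrt3, whose membrane protein binds FGF receptors, was higher by 0.98 ± 0.11 on the log2 scale at 1 h and lower by -1.36 ± 0.13 at 24 h, and its relative Flrt2 changed by -0.96 ± 0.07 at 2 h and 0.76 ± 0.06 at 4 h.

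Heparan sulfate proteoglycans, the co-receptors of FGF signalling, and FGF binding proteins were split, with 4 higher and 4 lower of 12 tested (median -0.08). Syndecan 4 (Sdc4) rose from 261 to 270 CPM in NT at 0 h to 1604 to 1674 CPM at 2 h (log2 2.62 ± 0.05, adjusted p = 1.7e-23), and was 1.31 ± 0.04 above 0 h at 24 h. Glypican 1 (Gpc1) rose by 1.45 ± 0.06 at 4 h, whereas Gpc6 changed by -1.03 ± 0.20 at 24 h and the FGF binding protein gene Fgfbp3 by -1.09 ± 0.18 at 4 h. Enzymes that build and edit heparan sulfate had 3 higher and 4 lower of 16 (median 0.34). Ndst4, an N-deacetylase and N-sulfotransferase, went from 11.3 to 13.2 CPM at 0 h to 2.02 to 2.42 CPM at 24 h in NT (log2 -2.41 ± 0.11), and Ndst3 changed by -1.52 ± 0.08 at 8 h. The chain polymerase gene Ext1 rose by 1.13 ± 0.04 and the endosulfatase gene Sulf1 by 0.91 ± 0.05, both at 4 h.

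Of 20 signal transduction genes, 4 were higher and 4 lower (median 0.06). Cblb, a ubiquitin ligase, rose by 1.62 ± 0.06 on the log2 scale and Map2k1, which encodes MEK1, by 1.23 ± 0.05 at 4 h. The adaptor genes Frs3 and Gab1 changed by -1.34 ± 0.22 at 2 h and -0.99 ± 0.06 at 4 h. Feedback and target genes of ERK signalling had 4 higher and 8 lower of 14 (median -0.65), and members of the list moved in both directions: Etv1 changed by -1.59 ± 0.18 at 4 h and Etv4 by -1.19 ± 0.08 at 1 h. Among the MAPK phosphatase and Sprouty genes, Dusp5 rose from 13.8 to 15.4 CPM at 0 h to 150.4 to 158 CPM at 2 h in NT (log2 3.39 ± 0.05), Dusp6 by 1.79 ± 0.04 and Spry2 by 2.03 ± 0.06 at 2 h. Dusp4 also rose at 2 h in NT, from 10.2 to 11.2 CPM at 0 h to 16.8 to 19.4 CPM, but changed by -1.02 ± 0.10 at 24 h. Spry1 was lower at 24 h too, with -0.97 ± 0.10.

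Between siRNA groups, over the 6 time points together, 39 of the 70 list genes had an adjusted p under 0.05, against 31.8% of all genes, and 2 also passed the fold threshold, against 5.19% of all genes. These 2 were Spry2 and Extl1, the latter named after its value was seen. Extl1 was lower in IFT88siRNA at its largest difference but thinly covered, with 3 to 4 reads per library at 4 h against 7 to 15 in NT. The count of 2 was 1 without replicate 1, without replicate 2 and without replicate 3. Spry2, an inhibitor of receptor tyrosine kinase signalling, was lower in IFT88siRNA at 4 h (25.5 to 30.5 against 44.2 to 45.6 CPM in NT, log2 -0.66 ± 0.07, adjusted p = 3.21e-05) and at 8 h (-0.71 ± 0.10, adjusted p = 0.00319). For the response difference edgeR called 0 of the 70, against 1.20% of all genes, and DESeq2 and limma called 0. At an adjusted p under 0.05 by edgeR there were 6, against 5.53% of all genes. At an unadjusted p under 0.05 there were 23, and the share of all genes at that threshold was not counted.

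**Figure D5:**
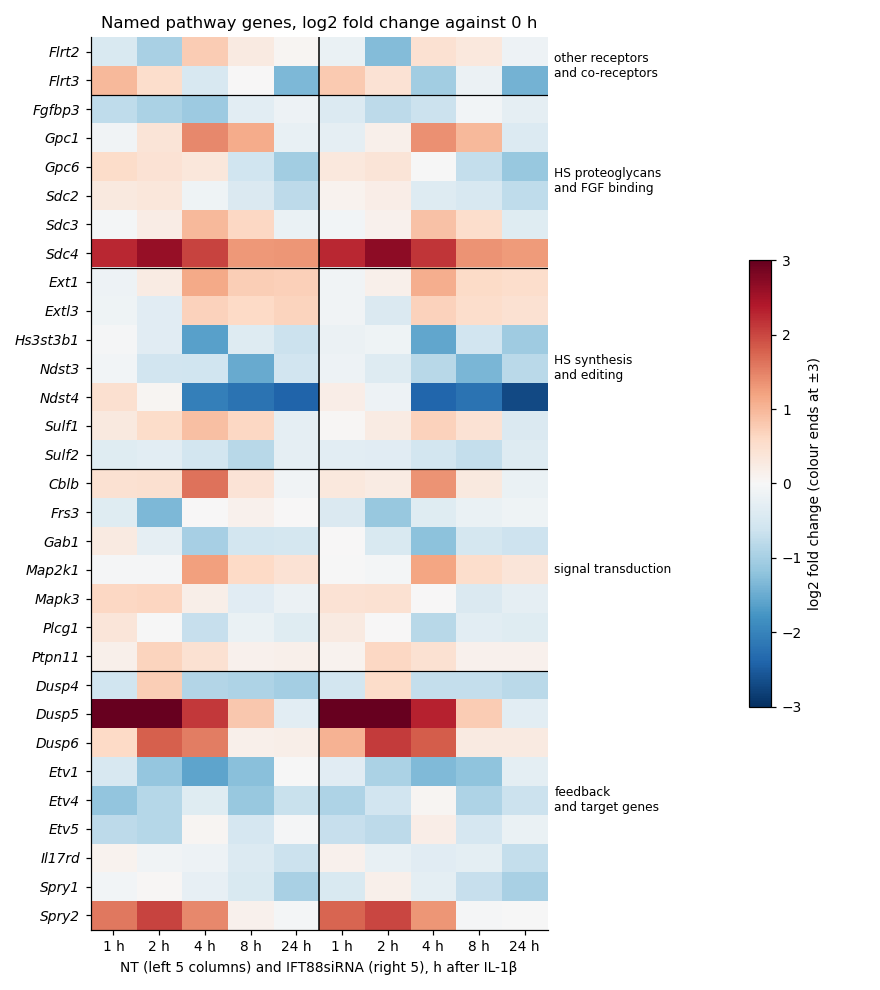
Log2 fold change against 0 h (colour, red higher, blue lower, ending at ± 3) of the named pathway genes in NT (left 5 columns) and IFT88siRNA (right 5 columns), grouped by list. Dusp5, Dusp6, Spry2 and Sdc4 are red at 1 to 4 h in both groups, and Ndst4 is blue from 4 h on.

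The members were also set beside each other and beside all genes over the 12 condition means of log2 CPM. These means share the scaling of the libraries and hold the same 6 time points in both siRNA groups, and the correlations are descriptions. Fgf10 and Fgfr3 ran most opposite (r = -0.95, and -0.92 over the 6 NT means alone). Fgf10 was also opposite to Fgfr2 (-0.83) and Fgf18 (-0.82). Fgfr3 ran with Fgfr2 (0.84) and Fgfrl1 (0.83), and Fgfr1 with Fgfrl1 (0.83), while Fgfr1 and Fgfr2 were unrelated (-0.01). The genes whose course was most like that of Fgf2 were Ddx39 (r = 0.985), Pprc1 and S1pr3. Fgf7 was closest to Nod2 (0.983), Gdnf and Hk2, and Fgf10 to Abca1 (0.989), Tmem154 and Rbm19. Fgf18 lay nearest to Pja2 (0.970), Camsap3 and Gpsm2. Among the receptors, the nearest genes were Katna1 (0.982), Ppp1r2 and Vasp for Fgfr1, Mllt3 (0.983), Ulk4 and Acadm for Fgfr2, Gas2 (0.985), Csdc2 and Ntng1 for Fgfr3, and Tusc3 (0.990), Tenm4 and 4930523C07Rik for Fgfrl1. Of these 24 genes, 7 were also among the 3 nearest when TPM was used.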

How the data were processed

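RNA of 36 libraries was sequenced as paired ends after poly(A) selection. Per the submitters' processing notes and the study's methods, the authors aligned reads with HISAT2 2.1.0 to GRCm38 and deposited raw counts per gene from featureCounts (Subread 1.6.3) with Ensembl annotation, at default settings, which ignore strand. They also deposited TPM values from Salmon 0.9.1, used here for levels per length. Total counts per library (19337022 to 38304127) set the precision, and intervals between replicates cover only the spread between these libraries.

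Counts were tested with the edgeR 4.0.16 quasi-likelihood F-test (R 4.3.3) with TMM scaling and filterByExpr, and p-values were adjusted by Benjamini-Hochberg over all genes tested. A gene was called at an adjusted p under 0.05 and a fold change over 1.5. IL-1β was tested within the 18 libraries of each siRNA group, IFT88siRNA against NT within the 6 libraries of each time point, and the joint siRNA test and the difference in response over all 36 libraries. CPM values were scaled by TMM over all libraries. The scripts were tested on simulated data.

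Named genes were the 8 members, Ift88, up to 4 called genes per pathway list with the largest change among those with a mean of 50 or more counts per library, and the 3 genes of most similar course per member. Genes outside this rule are said to be so. The members and lists were chosen with earlier results of these data known. Gene positions come from GENCODE annotation of GRCm38, and promoter sequences from RefSeq, where 7 of 8 members matched. Alternatives were DESeq2 1.42.0, other scalings, no low-count filter, no fold threshold, a replicate block, leaving out each replicate number, all 36 libraries in 1 model, and limma 3.58.1 on log2(TPM + 1) or log2(TPM + 0.1).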

Additional observations from a re-analysis of the deposited data

Results flagged for a closer look

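In a test of the difference in IL-1β response between the siRNA groups, 3 of the 4 receptor genes and 0 of the 4 ligand genes had a joint adjusted p under 0.05 by edgeR, as had 5.53% of all genes. Past the fold threshold as well, Fgfr3 alone was called, against 1.20% of all genes, and limma on TPM called 0 of the 8 under all 3 settings. The value given is the largest log2 difference, response in IFT88siRNA minus response in NT, over 5 time points with 3 libraries per condition. For Fgfr2 it was -0.369 (joint edgeR adjusted p = 0.000106), for Fgfr3 -0.956 (adjusted p = 0.007) and for Fgfrl1 -0.348 (adjusted p = 0.0195). At 0 h all 4 receptors stood higher in IFT88siRNA than in NT, by 0.21 to 0.50 on the log2 scale, and the 0 h libraries enter each difference. The difference for Fgfr2 and Fgfrl1 was under 1.5-fold, and the Fgfr3 call was lost without replicate 1 and without replicate 2. For the ligands the joint edgeR adjusted p was 0.127 for Fgf2, 0.914 for Fgf7, 0.19 for Fgf10 and 0.503 for Fgf18. At 4 h the Fgf2 difference was 0.504, larger in size than those given for Fgfr2 and Fgfrl1. Its adjusted p at 4 h ran from 4.74e-06 to 0.474 over the alternatives, so the split between receptors and ligands depends on the processing.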

How the results depend on the processing

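Over 174 single results and 2213 comparisons with an alternative, 56 fell below and 37 rose past the thresholds, and 0 reversed while called. Of the 174 results, 26 had the other sign in an alternative where they were not called. The rises came from dropping the fold threshold, apart from Fgfrl1 at 2 h of IL-1β in IFT88siRNA, which rose without replicate 2. Without a fold threshold, the counts of members called were 36 in place of 23 for IL-1β in IFT88siRNA, 16 in place of 5 for IFT88siRNA against NT at single times, 8 in place of 2 for all times, and 3 in place of 1 for the difference in response, and list genes called were 68 in place of 43 in NT and 39 in place of 2 between siRNA groups. With limma on TPM, under all 3 settings, members called between siRNA groups at single times were 2 and for the difference in response 0, and over all times the count was 1 with log2(TPM + 1), with or without the filter. Without a TPM filter, limma on log2(TPM + 1) called Ift88 at 1 of 6 times. With the filter, the Ift88 calls at 4 h (adjusted p = 0.113) and 8 h (0.0989) were lost. Leaving out a replicate number gave 3 to 4 member calls between siRNA groups at single times, 1 to 2 over all times, 0 to 1 for the difference in response, and 1 list gene between siRNA groups. With counts per kilobase, 5 of 8 members kept their rank, and with TPM 7 of 24 similar genes were shared. The cause of these shifts was not tested.

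Counts over all genes were least stable between siRNA groups. At 0 h the count was 341 with a range of 75 to 406 over the alternatives, at 1 h 393 (51 to 473), at 2 h 73 (8 without replicate 1, to 142), at 4 h 64 (13 to 100), at 8 h 105 (22 to 422 without replicate 3) and at 24 h 175 (34 to 217). The joint count was 868 (367 to 1053), and for the difference in response it was 201 (62 without replicate 1, to 345). Upper-quartile scaling moved the median of all genes by -0.12 on the log2 scale at 4 h in NT, and the share of calls that were higher was 45.7% there against 56.7%, and 37.96% with limma on log2(TPM + 1). At 2 h in NT it was 26.8% with limma against 47.6%.

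Deviations from the condition mean were correlated between NT and IFT88siRNA samples of a time point. With the same replicate number, r ran from -0.23 to 0.46 over 18 pairs, against -0.49 to 0.52 over 36 pairs with other numbers. At 1 h the 3 pairs with the same number (0.0589 to 0.196) lay above the 6 others (-0.235 to 0.049). Whether samples with the same number were handled together cannot be told from these correlations. With a replicate block, 4 in place of 5 members were called between siRNA groups at single times, the lost call being Fgf18 at 24 h (log2 0.86, adjusted p = 0.0787), and all-gene calls at 2 h were 115 in place of 73. DESeq2 gave no adjusted p for 9 results, 8 of them for Fgf18, the most thinly covered member with 6 to 89 reads per library.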

Other observations

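The gene of another ligand, Fgf23, was singled out after its values were seen. Fgf23 encodes a hormone that lowers blood phosphate and is made mainly by bone cells. Its 3 NT libraries held 9 reads in all at 0 h, 8 at 1 h and 12 at 2 h, of which 1 library gave 11. At 4 h they held 27 to 43 reads each, at 8 h 32 to 61 and at 24 h 16 to 22, all above 0 h. By edgeR, Fgf23 was 3.68 above 0 h on the log2 scale after 4 h (adjusted p = 3.01e-06), 3.98 after 8 h (5.44e-07) and 2.42 after 24 h (0.0026). This fold change depends on the prior count, since the 0 h counts are so low. In IFT88siRNA the counts per library were 2 to 4 at 0 h, 35 to 49 at 4 h, 34 to 37 at 8 h and 14 to 24 at 24 h, and the joint test of a different response gave an adjusted p of 0.843. Per length, Fgf23 stood at 2.22 ± 0.492 TPM at 8 h in NT (SD, n = 3).

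Fgf14, which encodes an intracellular FGF-like protein, was likewise chosen after its values were seen. The NT libraries held 9 to 20 reads at 0 h, 26 to 33 at 1 h, 20 to 36 at 2 h and 3 to 8 at 4 h, so that 1 h lay above and 4 h below every 0 h library. IFT88siRNA libraries held 13 to 22 reads at 0 h, 27 to 36 at 1 h and 1 to 5 at 4 h.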
